A study of Mus musculus with 6 samples.

Results

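The Wnt ligands described here are 10 genes of the deposited expression table, chosen by symbol: Wnt2b, Wnt4, Wnt5a, Wnt5b, Wnt6, Wnt7b, Wnt9a, Wnt10b, Wnt11 and Wnt16. They are 10 of the 19 Wnt genes in the table and of 23364 gene symbols in all. RNA-seq libraries came from 2 groups of C57BL/6 mice at postnatal day 1. The osteoblast group held 3 libraries of calvarial cells sorted for green fluorescent protein (GFP), labelled Sp7 positive as their genotype and released with Liberase. The chondrocyte group was 3 libraries from cartilage of the ribs of wild-type animals, its cells released with Pronase and Collagenase D and not labelled as sorted. Calvaria are the bones of the skull roof, and Sp7 (Osterix) is a transcription factor needed for bone formation. The sources used here give neither the construct that carries GFP nor the number of animals per library, so p-values measure the spread between these libraries. Cell type, site in the body, sorting, genotype and enzyme all differ together between the groups and cannot be told apart.

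Wnt proteins are secreted, lipid-modified ligands. Porcupine attaches the lipid, Wntless carries the protein to the cell surface, and Frizzled receptors bind it there. With the co-receptors Lrp5 and Lrp6 the signal stabilises beta-catenin, which works with Tcf and Lef factors in the nucleus. Other ligands, best known from Wnt5a and Wnt11, act largely without beta-catenin, through receptors such as Ror2, on cell polarity and movement. In the skeleton, beta-catenin signalling favours osteoblasts over chondrocytes and raises bone mass.

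Levels are given as RPKM, reads per kilobase of transcript and per unit of sequencing depth, summed over the transcripts of a gene. The steps between low values gave estimated depths of 27000000 to 35900000 reads per library, so that 1 RPKM in a 2 kb transcript stood for 53.9 to 71.8 reads. Read numbers below are estimates from these depths and from transcript lengths, so they carry the errors of both besides counting error. Sp7 stood at 108 to 134 RPKM in osteoblasts and 0.911 to 2.31 in chondrocytes, and Col2a1, the main cartilage collagen, at 23.7 to 35.5 and 26727 to 48028. All 6 osteoblast markers were called higher in osteoblasts and all 6 chondrocyte markers higher in chondrocytes. Chondrocyte replicate 3 stood apart: all 9 markers of fibroblasts, perichondrium and tendon were highest there among the chondrocyte libraries, with a summed level of 5692 RPKM against 2276 and 1703 in replicates 1 and 2 and 3157 to 4634 in osteoblasts. Its Col1a1 was 7765 RPKM against 2270 and 2259. All 6 myeloid markers (sum 7.17 RPKM against 2.48 and 1.29), all 5 endothelial markers (4.97 against 2.36 and 2.08) and 4 of 5 osteoclast markers (165 against 58.5 and 47.0) were highest in it too. In such bulk RNA, fewer cells of a type and less RNA per cell cannot be told apart.

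Osteoblasts held far more Wnt ligand RNA than chondrocytes. The summed level of the 10 ligands was 82.6, 80.6 and 74.9 RPKM in osteoblast replicates 1 to 3 and 7.74, 8.89 and 10.6 RPKM in chondrocyte replicates 1 to 3, a ratio of means of 8.73. Without chondrocyte replicate 3 the ratio was 9.54. For 8 of the 10 genes every osteoblast library lay above every chondrocyte library. Wnt4 and Wnt11 overlapped. Among all 18387 genes above the table's lowest value in some library, 46.9% had every osteoblast library higher, and among the 11218 genes that passed the filter of the test 60.4% did. The ligand count stands against that background, which is itself tilted to osteoblasts.

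**Figure D1:**
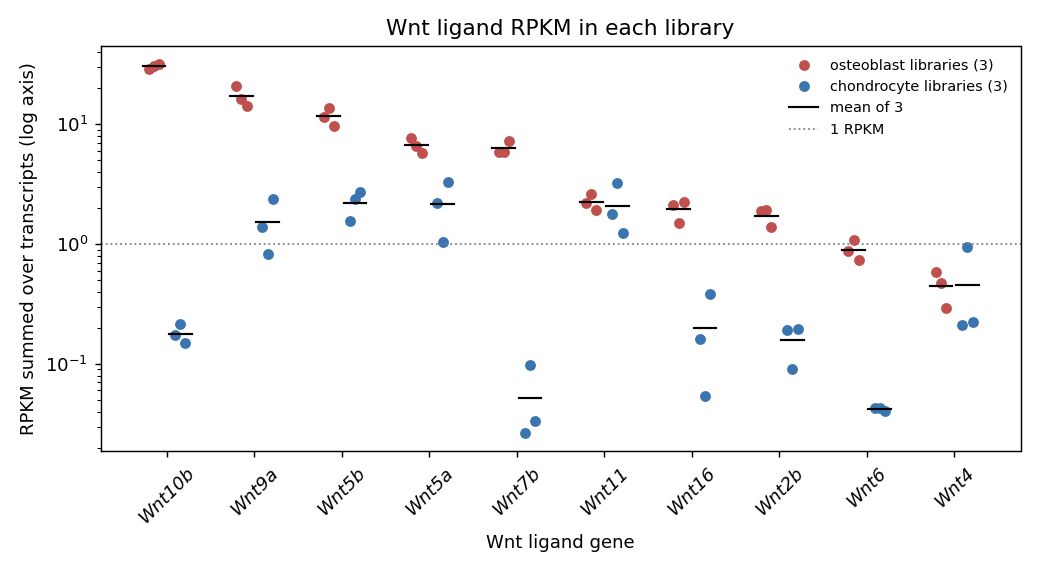
RPKM of each Wnt ligand gene (log axis) in the 3 osteoblast and 3 chondrocyte libraries, with the mean of each group as a bar and 1 RPKM as a dotted line. Wnt10b is highest in osteoblasts at 28.9 to 31.6 RPKM and near 0.2 in chondrocytes, while the groups of Wnt11 and Wnt4 overlap.

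In osteoblasts the order of mean level ran from Wnt10b (30.3 RPKM) through Wnt9a (17.1), Wnt5b (11.7), Wnt5a (6.67), Wnt7b (6.30), Wnt11 (2.24), Wnt16 (1.95), Wnt2b (1.73) and Wnt6 (0.900) to Wnt4 (0.450). The library ranges of Wnt5a and Wnt7b overlapped, as did those of Wnt11 with Wnt16 and of Wnt16 with Wnt2b. The other neighbours were separated. In chondrocytes Wnt5b (2.22 RPKM), Wnt5a (2.17), Wnt11 (2.08) and Wnt9a (1.53) led, followed by Wnt4 (0.458), Wnt16 (0.199), Wnt10b (0.179), Wnt2b (0.159), Wnt7b (0.0523) and Wnt6 (0.0423). Every neighbouring pair overlapped there, but every library value of Wnt5b, Wnt5a and Wnt11 lay above every value of the 6 ligands from Wnt4 down.

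The make-up of the ligand RNA differed as well as its amount. Wnt10b and Wnt9a together were 60.5%, 58.0% and 60.9% of the summed ligand RPKM in osteoblasts and 20.3%, 11.8% and 23.7% in chondrocytes. Wnt10b carried that gap, at 35.1%, 37.8% and 42.1% against 2.24%, 2.40% and 1.41%. The Wnt9a share overlapped between the groups, at 25.4%, 20.2% and 18.8% in osteoblasts and 18.0%, 9.35% and 22.3% in chondrocytes. Wnt5a, Wnt5b and Wnt11 are among the ligands that act largely without beta-catenin. Together they were 25.8%, 28.6% and 23.2% in osteoblasts and 71.5%, 74.5% and 68.0% in chondrocytes. Wnt10b with Wnt9a, and Wnt5a, Wnt5b and Wnt11, are also the highest ligands of the respective groups, so these shares follow from the order of levels and are given as a description. The larger chondrocyte share does not stand for more RNA: Wnt5a and Wnt5b were lower there than in osteoblasts, and Wnt11 overlapped.

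**Figure D2:**
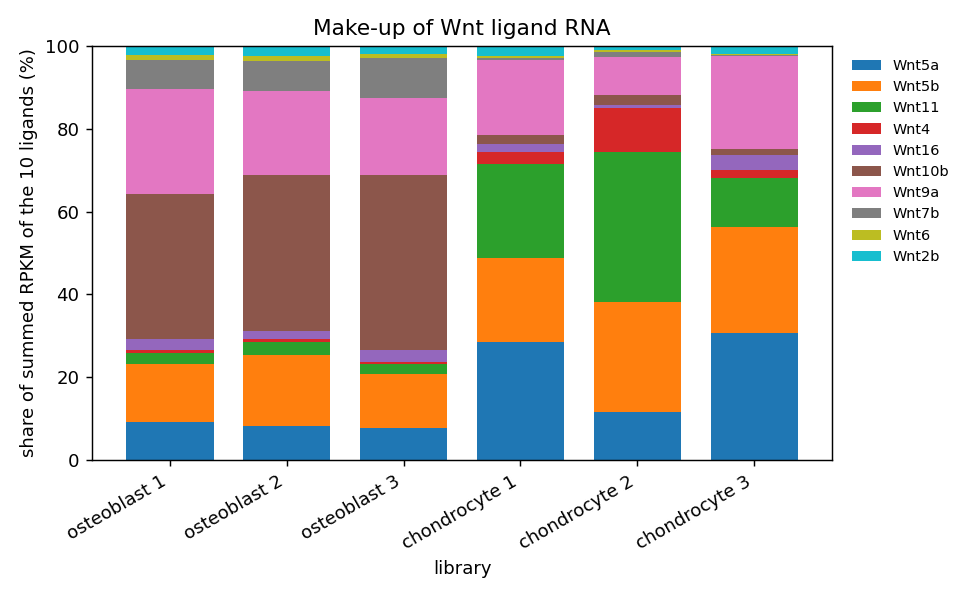
Share of each ligand in the summed RPKM of the 10 Wnt ligand genes (percent), 1 bar per library. Wnt10b is 35.1% to 42.1% of the osteoblast bars and 1.41% to 2.40% of the chondrocyte bars, and Wnt11 is 2.57% to 3.25% and 11.6% to 36.3%.

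The test across all genes (limma on log2(RPKM + 1), osteoblast minus chondrocyte, Benjamini-Hochberg adjusted p under 0.05) took genes with at least 1 RPKM in at least 3 of the 6 libraries. It covered 8 of the ligands, and 7 of those were called higher in osteoblasts, 0 lower, and Wnt11 was not called. Of all 11218 tested genes 69.0% were called, 55.5% higher in osteoblasts and 13.5% lower. Wnt2b, Wnt7b, Wnt10b and Wnt16, with no chondrocyte library at 1 RPKM, passed the filter through osteoblasts alone and had to differ, and Wnt9a passed it fully there and in 2 chondrocyte libraries. Without the filter all 10 ligands were tested and 8 were called higher, against 40.7% of 18387 genes, with 0 lower, against 10.7%. Their median log2 difference was then 1.32, against 0.13 for all genes. The median of the filtered genes was 0.43, so under the deposited scaling the typical tested gene lay above 0. The cause of that shift was not tested. Median-of-ratios scaling, which puts that median at 0.06 and calls 61.9% of genes, 33.6% higher and 28.3% lower, gave the same number of ligand calls, 7 higher.

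**Figure D3:**
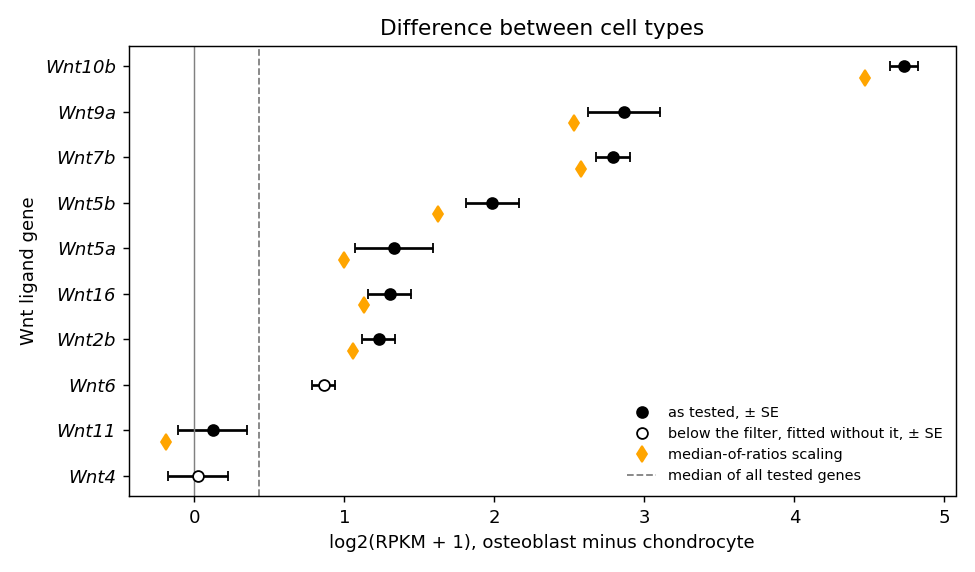
Log2(RPKM + 1) difference, osteoblast minus chondrocyte, of each Wnt ligand gene with its SE (n = 3 libraries a group). Open circles were below the filter and were fitted without it, diamonds show median-of-ratios scaling, and the dashed line is the median of all tested genes at 0.43. Wnt10b is at 4.73, and Wnt11 lies near 0 with its sign turned by that scaling.

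Wnt10b, a beta-catenin ligand known to favour osteoblast over fat cell fate, was the leading osteoblast ligand. It stood at 28.9, 30.5 and 31.6 RPKM in osteoblast replicates 1 to 3 and at 0.174, 0.213 and 0.150 in chondrocytes. The osteoblast level was at the 93.6th percentile of all gene symbols and the chondrocyte level at the 46.2nd. All 3 osteoblast libraries were high and close to each other, and no chondrocyte library came near them. The ratio of means was 169, resting on about 41 chondrocyte reads in all against 6407 in osteoblasts. On the log2 scale the groups differed by 4.73 ± 0.09 (SE, limma adjusted p = 2.50e-07).

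Wnt9a, a ligand known for its part in joint formation, was second in osteoblasts. Its levels were 21.0, 16.2 and 14.1 RPKM in osteoblasts and 1.40, 0.832 and 2.37 in chondrocytes. The ratio of means was 11.2, with a log2 difference of 2.86 ± 0.24 (SE) and a limma adjusted p of 5.36e-05. Unlike Wnt10b, it was measured well in chondrocytes, on about 531 reads. The chondrocyte libraries differed 2.85-fold among themselves, with replicate 3 highest, where the fibroblast, myeloid, endothelial and osteoclast marker sums were also highest. The part of those cells in the Wnt9a level was not tested. The osteoblast excess was larger without that library, with a ratio of 15.3.

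Promoter sequence is shown for Wnt10b and Wnt9a, the highest ligands of osteoblasts, and for the windows of Wnt11 and Wnt5b that were picked because they alone among the ligand windows held the Tcf and Lef core given next. Each window is the 250 bases before a RefSeq transcription start on build GRCm38.p6, in the direction of the gene. Capitals mark any of 3 short motifs on either strand: CTTTGAT, the core bound by Tcf and Lef factors, TAATTA, a homeodomain core, and GGGCGG, the GC box bound by Sp family factors. Overlapping matches were each counted. Promoter windows were at hand for 8 ligands, as 11 windows. There was no entry for Wnt5a or Wnt7b.
Wnt10b, chr15:98778151-98778400, minus strand: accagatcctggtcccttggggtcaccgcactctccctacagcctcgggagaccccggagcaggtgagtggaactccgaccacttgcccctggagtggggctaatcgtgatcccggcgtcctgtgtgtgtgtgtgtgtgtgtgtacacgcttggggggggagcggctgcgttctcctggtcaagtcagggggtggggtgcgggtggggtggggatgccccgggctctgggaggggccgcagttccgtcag
Wnt9a, chr11:59306680-59306929, plus strand: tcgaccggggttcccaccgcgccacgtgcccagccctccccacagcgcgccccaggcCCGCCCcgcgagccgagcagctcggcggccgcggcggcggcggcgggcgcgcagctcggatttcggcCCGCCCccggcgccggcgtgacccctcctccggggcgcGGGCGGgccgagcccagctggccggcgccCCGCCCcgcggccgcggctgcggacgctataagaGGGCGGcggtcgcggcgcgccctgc
Wnt11, chr7:98834862-98835111, plus strand: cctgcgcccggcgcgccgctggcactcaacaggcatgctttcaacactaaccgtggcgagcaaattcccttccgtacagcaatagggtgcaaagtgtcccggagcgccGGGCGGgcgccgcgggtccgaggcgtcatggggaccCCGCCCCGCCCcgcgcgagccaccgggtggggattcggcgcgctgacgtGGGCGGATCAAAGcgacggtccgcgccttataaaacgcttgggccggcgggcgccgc
Wnt5b, chr6:119449387-119449636, minus strand: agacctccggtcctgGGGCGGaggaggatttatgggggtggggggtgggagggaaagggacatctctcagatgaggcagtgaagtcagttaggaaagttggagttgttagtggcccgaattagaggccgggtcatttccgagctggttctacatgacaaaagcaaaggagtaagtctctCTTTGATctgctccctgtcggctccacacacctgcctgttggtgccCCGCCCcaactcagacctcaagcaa
The Wnt10b window held none of the 3 motifs and was 66.8% G and C. That of Wnt9a held 5 GC boxes and was 84.4% G and C. The Wnt11 window, 1 of 2 for that gene, held 4 GC boxes and a Tcf and Lef core that began 51 bases before the start, directly beside a GC box. The Wnt5b window, 1 of 3, held such a core 71 bases before the start and 2 GC boxes. Over the 11 ligand windows 7 held a GC box, 2 the Tcf and Lef core and 0 the homeodomain core, where 32.7%, 3.21% and 4.84% of all 32851 windows did. The median window of all genes was 52.4% G and C. A match is a description of the letters, and the files hold no binding data.

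Wnt7b, a ligand known to promote bone formation, was near the limit of detection in chondrocytes. It stood at 5.82, 5.82 and 7.25 RPKM in osteoblasts and at 0.0265, 0.0971 and 0.0333 in chondrocytes. About 17 chondrocyte reads stood against 1558 in osteoblasts. The ratio of means was 120, and 211 without chondrocyte replicate 2, which held about 10 of those reads. The log2 difference was 2.79 ± 0.11 (SE), with a limma adjusted p of 2.44e-06.

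Wnt16, a ligand made by osteoblasts and known for restraining osteoclasts and thickening cortical bone, was low in both groups. It stood at 2.11, 1.51 and 2.24 RPKM in osteoblasts and 0.161, 0.0535 and 0.384 in chondrocytes, and the groups did not overlap. The chondrocyte libraries spread 7.18-fold, on about 9, 3 and 23 reads. The ratio of means was 9.80, and 18.3 without chondrocyte replicate 3. The log2 difference was 1.30 ± 0.14 (SE), with a limma adjusted p of 0.000191.

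Wnt2b, a beta-catenin ligand of eye and limb development, was at a level like that of Wnt16. It stood at 1.87, 1.93 and 1.38 RPKM in osteoblasts and 0.191, 0.0914 and 0.195 in chondrocytes. All osteoblast libraries were above 1 RPKM and no chondrocyte library was. The ratio of means was 10.8 and the log2 difference 1.23 ± 0.11 (SE, limma adjusted p = 7.55e-05).

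Wnt6, a ligand best known from epithelia, fell below the filter. It stood at 0.878, 1.09 and 0.733 RPKM in osteoblasts and 0.0432, 0.0431 and 0.0405 in chondrocytes. Each chondrocyte value corresponds to about 3 reads, and the osteoblast values to about 63, 76 and 41. The groups were far apart in spite of the low level, with a ratio of 21.3. Fitted without the filter, its log2 difference was 0.86 ± 0.08 (SE, limma adjusted p = 0.000394). The epidermal markers Krt5 and Krt14, genes of a tissue in which several of these ligands are also made, were at 0.0659 to 0.122 and 0.0001 to 0.0224 RPKM in osteoblasts and at 0.0001 to 0.0255 and 0.0001 in chondrocytes. The 5 epidermal markers summed to 1.58 to 1.87 RPKM in osteoblasts and 0.804 to 1.24 in chondrocytes, most of it Krt10. Myeloid markers summed to 16.0 to 19.2 RPKM in osteoblasts and 1.29 to 7.17 in chondrocytes, with all 4 tested called higher in osteoblasts. Osteoclast markers summed to 202 to 217 against 47.0 to 165, with all 3 tested called higher. Most of that sum was Ctsk, at 199 ± 4.79 against 87.9 ± 64.6 RPKM (SD, n = 3 each). Erythroid markers summed to 28.9 to 64.2 against 5.35 to 28.9, with 1 of 4 called. Glial and neuronal markers summed to 7.23 to 9.43 against 1.41 to 2.95, mostly Tubb3 in osteoblasts, while the glial gene Sox10 was at 0.0001 to 0.109 there. Markers of fibroblasts, perichondrium and tendon went both ways. Of 9 tested, 5 were called higher in osteoblasts and 2 lower, against 55.5% and 13.5% of all tested genes. Dpt stood at 27.3 ± 13.7 RPKM in osteoblasts against 0.200 ± 0.0726, but Thbs4 at 2.28 ± 0.739 against 150 ± 117 (SD, n = 3 each). Endothelial markers leaned to chondrocytes, with sums of 0.604 to 2.14 RPKM in osteoblasts and 2.08 to 4.97 in chondrocytes. Muscle markers summed to 0.463 to 0.709 against 0.434 to 0.648. Of both lists 0 genes passed the filter of the test. The part of the cells behind all these markers in the ligand levels was not tested.

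Wnt5a and Wnt5b are close relatives that signal largely without beta-catenin and act in limb outgrowth and in the columns of growing cartilage. Wnt5b was the higher of the pair in osteoblasts, at 11.5, 13.8 and 9.72 RPKM against 1.56, 2.37 and 2.72 in chondrocytes. Its ratio of means was 5.27 and its log2 difference 1.98 ± 0.18 (SE), with a limma adjusted p of 7.09e-05. Wnt5a stood at 7.61, 6.64 and 5.76 RPKM in osteoblasts and 2.21, 1.03 and 3.26 in chondrocytes. Both groups expressed both genes, and the groups overlapped for neither. The difference of Wnt5a was the least of the 7 calls next to its error, at 1.33 ± 0.26 (SE), with a ratio of means of 3.07 and a limma adjusted p of 0.00283. Chondrocyte replicates 2 and 3 were 3.16-fold apart in Wnt5a, and the osteoblast libraries were all above both. Replicate 3, with the most Wnt5a and Wnt5b, was also the chondrocyte library with the highest fibroblast, myeloid, endothelial and osteoclast marker sums, whose part was not tested. Without it the Wnt5a ratio was 4.11 and that of Wnt5b 5.96.

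Wnt11, a ligand of cell movement in embryos that signals largely without beta-catenin, was the ligand whose levels differed least among those tested. It stood at 2.19, 2.61 and 1.92 RPKM in osteoblasts and at 1.77, 3.22 and 1.24 in chondrocytes. The chondrocyte libraries lay on either side of the osteoblast ones. Its log2 difference was 0.12 ± 0.23 (SE, limma adjusted p = 0.650). The sign turned under median-of-ratios scaling (-0.19), upper-quartile scaling (-0.20) and quantile normalization (-0.27) and without chondrocyte replicate 3 (-0.08). Without chondrocyte replicate 2 the gene was called higher in osteoblasts, at 0.38 with a limma adjusted p of 0.0343. About 386 reads in osteoblasts and 380 in chondrocytes lay behind it, and the chondrocyte libraries spread 2.61-fold.

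Wnt4, a ligand known from kidney tubules and from joints and maturing cartilage, was low and overlapped too. It stood at 0.588, 0.473 and 0.290 RPKM in osteoblasts and 0.210, 0.939 and 0.226 in chondrocytes. Chondrocyte replicate 2 was higher than every osteoblast library, and the other chondrocyte libraries were below them all. The ratio of means was 0.983, and 2.07 without that replicate. Fitted without the filter, the log2 difference was 0.02 ± 0.20 (SE, limma adjusted p = 0.957).

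Wnt4 and Wnt11 thus both peaked in chondrocyte replicate 2. Wnt7b and Wnt10b were also highest there among the chondrocyte libraries, and Wnt2b, Wnt5a, Wnt5b, Wnt9a and Wnt16 were highest in replicate 3. Col10a1, the collagen of hypertrophic cartilage, stood at 19.9, 58.4 and 3.32 RPKM in chondrocyte replicates 1 to 3. Ihh, the hedgehog ligand of the zone before it, stood at 1.35, 6.93 and 1.18 there. It was not limited to chondrocytes, at 5.07, 3.90 and 6.24 RPKM in osteoblasts, and its groups overlapped. Col10a1 and Ihh were looked up after the Wnt values had been seen. Both also peaked in replicate 2, as did 5 of the 6 chondrocyte markers and 4 of the 6 osteoblast markers. Col2a1, for example, stood at 37318, 48028 and 26727 RPKM in chondrocyte replicates 1 to 3. By rank the peak was thus not particular to Col10a1 and Ihh, but its size differed between genes. The chondrocyte libraries spread 17.6-fold for Col10a1, 5.86-fold for Ihh and 1.80-fold for Col2a1, against 4.47-fold for Wnt4 and 2.61-fold for Wnt11. Among the chondrocyte markers Matn1 also had a large peak, at 3.12, 46.6 and 3.10 RPKM in chondrocyte replicates 1 to 3. The link of Col10a1 and Ihh to Wnt4 and Wnt11 was not tested.

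Several RefSeq transcripts were listed for Wnt5a, Wnt5b and Wnt7b. Among tested transcripts 7 of the 8 that belong to the ligands were called higher in osteoblasts, against 52.2% of 13162 transcripts, and 0 lower, against 13.1%. Each of the 8 belongs to a different tested ligand gene, so this count repeats the gene calls and is not a separate result. Those of Wnt2b, Wnt7b, Wnt10b and Wnt16 passed the filter through osteoblasts alone and had to differ. In either direction 65.3% of transcripts were called. By exon make-up in GENCODE M21 the transcripts of Wnt5a, and those of Wnt7b, have separate first exons, so they mark different starts. Of Wnt7b, NM_001163634 held 78.4%, 86.6% and 83.2% of the RPKM in osteoblasts and NM_009528 held 20.6%, 13.4% and 16.8%. NM_001163634 stood at 4.57, 5.04 and 6.03 RPKM there and at 0.00267, 0.0001 and 0.0001 in chondrocytes. Its log2 difference was 2.63 ± 0.12 (SE, limma adjusted p = 4.38e-06). The few chondrocyte reads of Wnt7b were assigned mainly to NM_009528, at 0.0151, 0.0969 and 0.0331 RPKM, a total of about 15 reads.

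Of Wnt5a, NM_009524 carried most of the RNA in every library, at 7.03, 5.75 and 5.42 RPKM in osteoblasts and 1.96, 0.911 and 2.16 in chondrocytes. Its log2 difference was 1.43 ± 0.21 (SE, limma adjusted p = 0.000667). NM_001256224, with its own first exon, stood at 0.579, 0.895 and 0.339 RPKM in osteoblasts and 0.250, 0.122 and 1.11 in chondrocytes, so the groups overlapped. It held 33.9% of the gene in chondrocyte replicate 3, against 11.3% and 11.8% in replicates 1 and 2 and 5.88% to 13.5% in osteoblasts. Chondrocyte replicate 3 thus stood apart in the share of RPKM assigned to this transcript, which was seen in that library alone. For Wnt5b, NM_009525 held 97.9% to 99.9% in every library. It and NM_001271758 match the same GENCODE transcript, so they cannot be told apart by exons here. The sources used here do not say how the authors divided reads between transcripts.

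**Figure D4:**
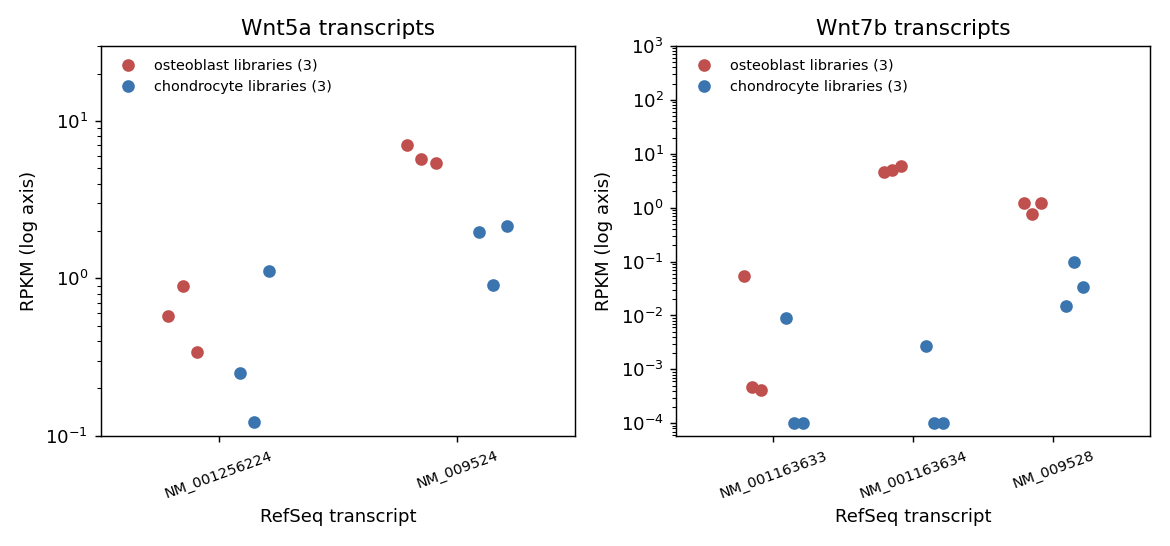
RPKM (log axis) of the RefSeq transcripts of Wnt5a (left) and Wnt7b (right) in the 3 osteoblast and 3 chondrocyte libraries; 0.0001 is the table's lowest value. NM_001163634 of Wnt7b lies at 4.57 to 6.03 RPKM in osteoblasts, and NM_001256224 of Wnt5a is highest in chondrocyte replicate 3 at 1.11.

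Of the ligands, 3 lie next to another Wnt gene among protein-coding genes of RefSeq (GRCm38.p6), and their neighbours' levels are given beside them. Wnt10b (30.3 RPKM in osteoblasts) neighbours Wnt1, a beta-catenin ligand needed for bone mass, which stood at 0.207, 0.138 and 0.390 RPKM in osteoblasts and 0.0126, 0.0001 and 0.0001 in chondrocytes. Wnt9a (17.1 RPKM) neighbours Wnt3a, which was listed at the lowest value in every library. Wnt6 (0.900 RPKM) is next to Wnt10a, and here the neighbour was the higher gene in osteoblasts, at 2.19, 2.33 and 1.77 RPKM in osteoblasts against 0.0304, 0.0152 and 0.0001 in chondrocytes.

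Wnt10a and Wnt2 were the 2 of the 9 other Wnt genes that passed the filter. Both were called higher in osteoblasts, as were 55.5% of all tested genes. The log2 difference of Wnt10a was 1.60 ± 0.10 (SE, limma adjusted p = 1.41e-05). Wnt2 stood at 2.14, 1.53 and 1.29 RPKM in osteoblasts and was listed at the lowest value, without reads, in all 3 chondrocyte libraries, with a log2 difference of 1.40 ± 0.13 (SE, limma adjusted p = 7.31e-05). Both passed through osteoblasts alone. Wnt3, Wnt3a, Wnt7a, Wnt8a, Wnt8b and Wnt9b were at the lowest value in all 6 libraries.

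The rest of the pathway was counted over lists of fixed genes in the same test. Both genes of ligand export were higher in osteoblasts: Porcn, the enzyme that adds the lipid, at 10.5 ± 0.820 against 2.31 ± 0.386 RPKM (SD, n = 3 each), and the carrier Wls at 56.5 ± 1.74 against 24.9 ± 4.80. Their log2 differences were 1.80 and 1.17 (limma adjusted p = 2.02e-05 and 0.000359), against a median of 0.43 for all tested genes. Of all tested genes 55.5% were called higher in osteoblasts, so a count of 2 of 2 says little by itself.

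Of 18 tested receptors, co-receptors and R-spondins 8 were called higher in osteoblasts and 4 lower, and 6 passed in neither direction, with a median log2 difference of 0.35, but under median-of-ratios scaling 4 were higher and 6 lower. Without osteoblast replicate 1 the number higher was 5. Of all tested genes 55.5% were higher and 13.5% lower, with a median of 0.43, so the receptors' share higher and their median lay below those of all genes. Fzd1 (69.2 ± 10.7 against 14.1 ± 3.80 RPKM) and Fzd5 (10.5 ± 0.739 against 1.61 ± 0.871) led on the osteoblast side. Fzd9 had the highest Frizzled level in chondrocytes, at 98.7 ± 22.6 RPKM against 3.09 ± 0.187, 32.0-fold higher (log2 difference -4.59, limma adjusted p = 1.30e-06). Lgr4, Fzd7 and Rspo3 were the others higher in chondrocytes. The co-receptor Lrp5, at 31.1 ± 2.82 and 33.9 ± 7.31 RPKM, was not called.

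Of 13 tested secreted and membrane antagonists, 8 were called higher in osteoblasts and 3 higher in chondrocytes. The shares of all tested genes were 55.5% and 13.5%, and with 13 genes the counts are not far from these. The median log2 difference of the antagonists was 2.11, against 0.43 for all tested genes. Sfrp4 (4.11) and Sfrp2 (3.80) led in osteoblasts. Sfrp1 (-3.53), Frzb (-2.30) and Sfrp5 (-1.89), all secreted Frizzled-related decoys, were higher in chondrocytes. Wif1 and Notum were not called, and without chondrocyte replicate 2 the number higher in chondrocytes was 5.

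Signal transduction had 16 tested genes, 10 of them called toward osteoblasts and 2 toward chondrocytes, against 4 and 3 under median-of-ratios scaling. These shares are near those of all tested genes, 55.5% higher and 13.5% lower. Tcf7, a nuclear partner of beta-catenin, led at 32.0 ± 3.58 against 0.946 ± 0.0721 RPKM (log2 difference 4.08), while its relatives Tcf7l2 (-0.65) and Lef1 (-0.54) were higher in chondrocytes. Among 7 tested feedback and target genes 5 were called toward osteoblasts and 0 toward chondrocytes, against 3 and 0 under median-of-ratios scaling. The background was 55.5% higher, or 33.6% under that scaling, and with 7 genes the count is not far from it. The 5 were Tnfrsf19 (4.94), Ccnd1 (2.15), Nkd2 (0.85), Nkd1 (0.75) and Axin2, the feedback inhibitor widely used as a readout of beta-catenin signalling, at 11.3 ± 1.15 against 2.71 ± 0.407 RPKM (log2 difference 1.74, limma adjusted p = 2.56e-05). Myc and Znrf3 were not called.

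**Figure D5:**
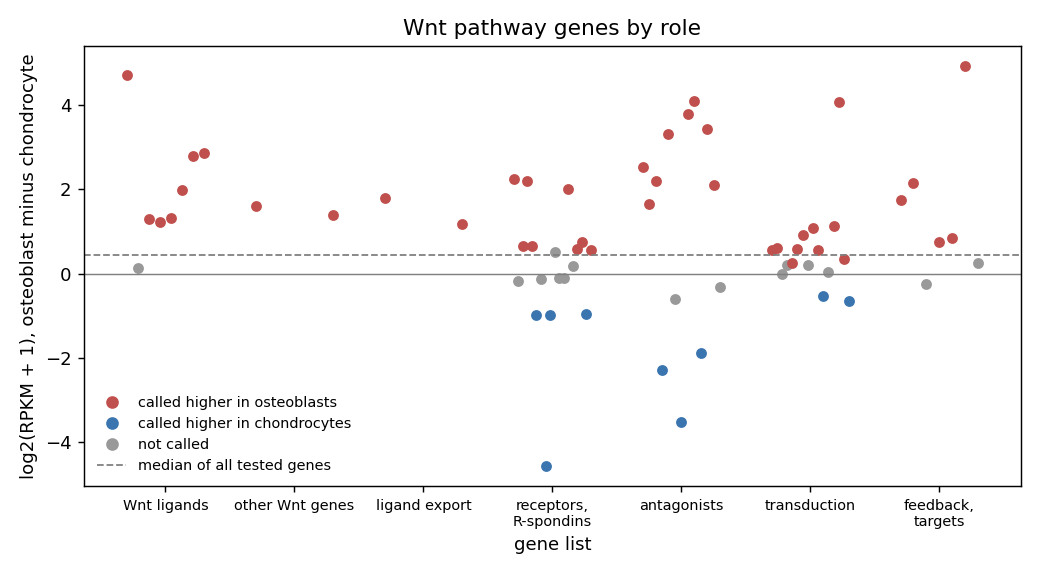
Log2(RPKM + 1) difference, osteoblast minus chondrocyte, of every tested gene of 7 Wnt pathway lists, 1 point per gene in alphabetical order within a list, coloured by call; the dashed line is the median of all tested genes at 0.43. Ligands lie between 0.12 and 4.73, while antagonists run from -3.53 to 4.11.

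By distance over the 6 libraries in log2(RPKM + 1), the non-ligand genes most like Wnt10b were Col26a1 (distance 0.43, with means of 32.8 and 0.324 RPKM in osteoblasts and chondrocytes), Car3 (0.54) and Irx5 (0.61). Those most like Wnt5b, the highest ligand of chondrocytes by mean, were Lmnb2 (0.25, with means of 11.3 and 2.31 RPKM), Eml4 (0.47) and Olfm1 (0.53). With 2 groups of 3 libraries this likeness is mostly a shared pair of levels.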

How the data were processed

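RNA-seq was measured in 3 osteoblast and 3 chondrocyte libraries. The authors deposited RPKM for 31055 RefSeq transcripts in each library, with 0.0001 as the lowest value. TopHat2 2.0.8 and genome build mm9 are listed, per the submitters' processing notes, and no counting program is given in the sources used here. RPKM was summed over the transcripts of each of 23364 symbols, and all 6 value columns were used. The 11218 genes that reached 1 RPKM in 3 or more of the 6 libraries were tested with limma 3.58.1 (R 4.3.3, two-sided, variance trend, robust) on log2(RPKM + 1), with Benjamini-Hochberg adjustment over all of them. This scale understates changes of low genes. Ratios are of mean RPKM. The fit was tested on simulated data. Read numbers were estimated from the steps of low values and GENCODE M21 transcript lengths (GRCm38, used for lengths and exons only). With these, 57.2% to 60.5% of values under 20 reads came within 0.05 of a whole number, on depths fitted to the same values. Groups come from sample titles. The ligands, gene lists and motifs were chosen with earlier results of these data known. All ligands are named; per pathway list the 2 largest calls each way, the highest uncalled gene and every gene of a count of 5 or fewer may be named, as may the 3 genes nearest the top ligand of each cell type. Alternatives were other pseudocounts, filters, scalings, moderation, weights, a replicate block, each library left out and 1 transcript per gene.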

Additional observations from a re-analysis of the deposited data

How the results depend on the processing

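Of the 8 tested ligands, 7 were called higher in osteoblasts and 0 lower in limma at pseudocounts of 0.1 and 5, under the 4 other scalings, without a variance trend, with library weights and with 1 transcript per gene. Without a filter 8 of 10 were called. Keeping only genes with a mean RPKM from 5 up left 3 ligands and 3 ligand transcripts, all called higher. With each library left out in turn, 7 to 8 ligands (8 without chondrocyte replicate 2) and 7 transcripts were called higher and 0 lower. The replicate number as a block gave 7 ligands and 7 transcripts, and in the other lists 9 receptors higher (of 8), 4 antagonists lower (of 3) and 9 transduction genes higher (of 10). Deviations of same-numbered libraries correlated at 0.08, 0.01 and -0.16, and 1 of 6 libraries correlated best with its own number. The labels do not say what the number stands for. With 3 libraries a group these correlations cannot decide whether same-numbered libraries were prepared together. Wnt11 turned to -0.19, -0.20 and -0.27 under median-of-ratios, upper-quartile and quantile scaling and to -0.0823 without chondrocyte replicate 3, and became a call (0.38) without chondrocyte replicate 2; the cause was not tested. Log2 differences depended on the pseudocount, by its construction, as for Wnt10b with 2.77 to 6.77 over the alternatives. In the other lists, receptors higher in osteoblasts numbered 4, 3 and 3 (of 8) under those 3 scalings and 5 without osteoblast replicate 1, transduction genes 4, 4 and 5 (of 10) and targets 3, 3 and 3 (of 5). Transduction genes lower numbered 5 under upper-quartile and 4 under quantile scaling (of 2), and 1 at mean RPKM of at least 5. Antagonists higher numbered 5 at that filter (of 8), and lower 5 with library weights or without chondrocyte replicate 2 (of 3). Targets lower numbered 1 with library weights (of 0), and no other Wnt gene remained at mean RPKM of at least 5. Depth limits the ratios of Wnt6, Wnt7b, Wnt16 and Wnt10b, which rest on about 9, 17, 35 and 41 chondrocyte reads.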
